A study of Homo sapiens with 18 samples.

Results

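The 8 genes described here encode the core enzymes and complexes of PI3K, AKT and mTOR signalling: PIK3CA, PIK3CB and PIK3R1, AKT1 and AKT2, MTOR, RPTOR and RICTOR. They were taken by symbol from a table of expected read counts for 58870 genes, and all 8 had enough counts to be tested, among 15787 genes that did. The counts come from NCI-H295R, an established human cell line from an adrenocortical carcinoma, a tumour of the steroid-making adrenal cortex, so every group is the same line and differs from the others in its inhibitors. Cells were exposed for 48 h to STA9090 (also named ganetespib, which blocks the chaperone HSP90), to PIK75 (a PI3K inhibitor), to BGT226 (an inhibitor of PI3K and mTOR), to STA9090+PIK75 or to STA9090+BGT226, or were left untreated. The stated concentration is 20 nM, how it was split between the agents of a combination is not given in the labels, and no vehicle is named. There were 6 groups with 3 biological replicates in each, making 18 libraries.

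Class I PI3K is a lipid kinase made of a catalytic subunit, such as p110-alpha (PIK3CA) or p110-beta (PIK3CB), held and stabilised by a regulatory subunit such as p85-alpha (PIK3R1). The lipid it makes draws the AKT kinases to the membrane, where they are switched on, and AKT in turn relieves the brake on mTOR complex 1, in which the kinase MTOR is joined by RPTOR and drives protein synthesis and growth. With RICTOR instead of RPTOR the same kinase forms mTOR complex 2, which phosphorylates AKT. Adrenocortical carcinomas often make much IGF2, a growth factor whose receptor feeds into this pathway, and AKT is a known HSP90 client. PI3K and mTOR inhibitors act on enzyme activity. The values below are levels of RNA, and protein or phosphorylation was not measured here.

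Library totals ran from 10.24 to 21.13 M counts, and BGT226 replicate 3 had the highest. Transcripts of RNA polymerase III, most of them RN7SL1, RN7SL2, RN7SK and RPPH1, held 28.64% to 40.35% of the counts of a library. Levels are given as CPM, counts scaled to 1 M per library with TMM factors. The adrenocortical markers were there: 10 of 11 were tested, all but CYP11B1, and untreated cells averaged 586 CPM of NR5A1 and 4956 CPM of IGF2. Their summed level, most of it IGF2, was 5742 to 6708 CPM with STA9090, 5638 to 6624 with PIK75, 9455 to 9511 with BGT226, 4120 to 4573 with STA9090+PIK75 and 8880 to 9196 with STA9090+BGT226, against 6954 to 7521 CPM in untreated cells. No treatment overlapped untreated cells in this sum, and its part in the values of the 8 genes was not tested. Of the markers of adrenal medulla 0 of 3 and of endothelium 0 of 4 passed the filter, and TH was at 0 in every library. In bulk RNA, fewer cells of a kind and less RNA per cell cannot be told apart.

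By the GENCODE 29 annotation of hg38, PIK3CA (ENSG00000121879.5) lies at chr3:179148114-179240093 on the plus strand and PIK3CB (ENSG00000051382.8) at chr3:138652699-138834938 on the minus strand. PIK3R1 (ENSG00000145675.15) is at chr5:68215720-68301821 on the plus strand. AKT1 (ENSG00000142208.16) is at chr14:104769349-104795751 and AKT2 (ENSG00000105221.17) at chr19:40230317-40285536, each on the minus strand. MTOR (ENSG00000198793.12) is at chr1:11106535-11262507 on the minus strand, RPTOR (ENSG00000141564.15) at chr17:80544819-80966371 on the plus strand and RICTOR (ENSG00000164327.13) at chr5:38937919-39074408 on the minus strand. The IDs are printed as in the count table. For PIK3CA, PIK3R1, AKT2, RPTOR and RICTOR, GENCODE 29 holds another version of the ID, and positions and lengths are of that version. All 8 are protein-coding, and values are summed over the exons of a gene. By that annotation 4 members share exon sequence with genes on the opposite strand that had counts. RICTOR shares 229 bp with OSMR, the oncostatin M receptor, whose summed counts were 69.6% of RICTOR's. PIK3CA shares 3403 bp with KCNMB3, a potassium channel subunit, whose counts were 11.4% of PIK3CA's. RPTOR shares 133 bp with the antisense gene AC127496.1 and AKT1 shares 663 bp with AL583722.2, whose counts were 1.34% of RPTOR's and 0.208% of AKT1's. The libraries were stranded per the labels, but the sources used here give no strand setting for the counting.

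The promoters of PIK3CA, MTOR and RICTOR are shown because these genes carry the contrasts described below: PIK3CA was lower and MTOR higher with PIK75 than with BGT226, and RICTOR was higher with every treatment than in untreated cells. Each run holds 250 bases before and 50 after the RefSeq transcription start on GRCh38.p14, 5′ to 3′ on the strand of the gene. They lie at chr3:179148107-179148406 (plus), chr1:11262502-11262801 (minus) and chr5:39074350-39074649 (minus). RefSeq gave 14 promoters for the 8 genes. Each was searched on both strands for the FOXO core TGTTTAC, reverse complement GTAAACA, since FOXO factors are restrained by AKT, and for the E-box CACGTG. The FOXO core was found in 1 of the 14, that of PIK3CA, 149 bases before the start on the plus strand, where it is printed in capitals. It is held by 3.42% of all 35116 promoters of that length. The E-box was in 0 of the 14 and in 7.26% of all. A match is a description of these letters, and neither it nor its absence says whether a factor binds.
PIK3CA promoter: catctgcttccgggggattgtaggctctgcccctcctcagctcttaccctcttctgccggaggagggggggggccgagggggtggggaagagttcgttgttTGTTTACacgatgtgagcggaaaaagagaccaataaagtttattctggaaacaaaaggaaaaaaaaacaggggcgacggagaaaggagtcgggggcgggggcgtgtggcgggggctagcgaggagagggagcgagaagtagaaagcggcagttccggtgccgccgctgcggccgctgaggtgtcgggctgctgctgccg
MTOR promoter: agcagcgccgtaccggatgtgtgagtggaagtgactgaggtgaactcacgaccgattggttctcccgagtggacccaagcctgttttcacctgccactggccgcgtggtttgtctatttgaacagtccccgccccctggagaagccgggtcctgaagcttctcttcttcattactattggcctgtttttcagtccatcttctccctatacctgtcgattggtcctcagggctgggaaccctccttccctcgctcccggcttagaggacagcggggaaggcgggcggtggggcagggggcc
RICTOR promoter: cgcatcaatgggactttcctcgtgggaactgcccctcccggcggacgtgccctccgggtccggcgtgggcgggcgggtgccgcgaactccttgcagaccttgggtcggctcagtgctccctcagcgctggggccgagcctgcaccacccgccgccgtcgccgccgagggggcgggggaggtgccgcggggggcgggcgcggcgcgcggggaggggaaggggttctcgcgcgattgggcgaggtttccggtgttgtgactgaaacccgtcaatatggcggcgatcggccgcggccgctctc

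Across the treatments the 8 RNAs did not move as a block. RICTOR was higher than in untreated cells with each of the 5 treatments, by 1.22 to 1.55 times. MTOR was 1.2 times its untreated level with PIK75 and 0.832 times with BGT226. AKT1 was lower with BGT226 and with each combination, at 0.746 to 0.815 times its untreated level, while AKT2 passed the test in 0 of 13 comparisons. RPTOR was higher with BGT226 and STA9090+BGT226, by 1.17 and 1.19 times. PIK3CB was lower with PIK75 and STA9090+PIK75. The RPTOR and PIK3CB changes, MTOR with PIK75, AKT1 with BGT226 and RICTOR with STA9090 or BGT226 did not pass under every alternative tried.

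A gene is called here when edgeR's quasi-likelihood F-test gave an adjusted p under 0.05 over all 15787 genes. With STA9090 alone, 1 of 8 members was called higher and 0 lower, where 1.16% of all genes tested were called higher and 1.68% lower. PIK75 gave 2 higher and 1 lower, with 8.49% of all genes higher and 10.2% lower. BGT226 gave 2 higher and 2 lower, with 12.8% of all genes higher and 15.7% lower. STA9090+PIK75 gave 1 higher and 2 lower, with 18.3% of all genes higher and 20.1% lower, shares near those of the members. STA9090+BGT226 gave 3 higher and 2 lower, with 19.4% of all genes higher and 20.4% lower. These 5 comparisons share the untreated libraries. The median log2 fold change of the 8 members was 0.023 with STA9090, -0.077 with PIK75, 0.041 with BGT226, -0.22 with STA9090+PIK75 and 0.13 with STA9090+BGT226, against medians of all genes between 0.0019 and 0.032. The libraries of treated and untreated cells did not overlap for 2 members with STA9090, 5 with PIK75, 4 with BGT226, 6 with STA9090+PIK75 and 5 with STA9090+BGT226. Over all genes tested the share without overlap was 19.8%, 32.2%, 44.9%, 48.1% and 50% in those 5 comparisons.

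**Figure D1:**
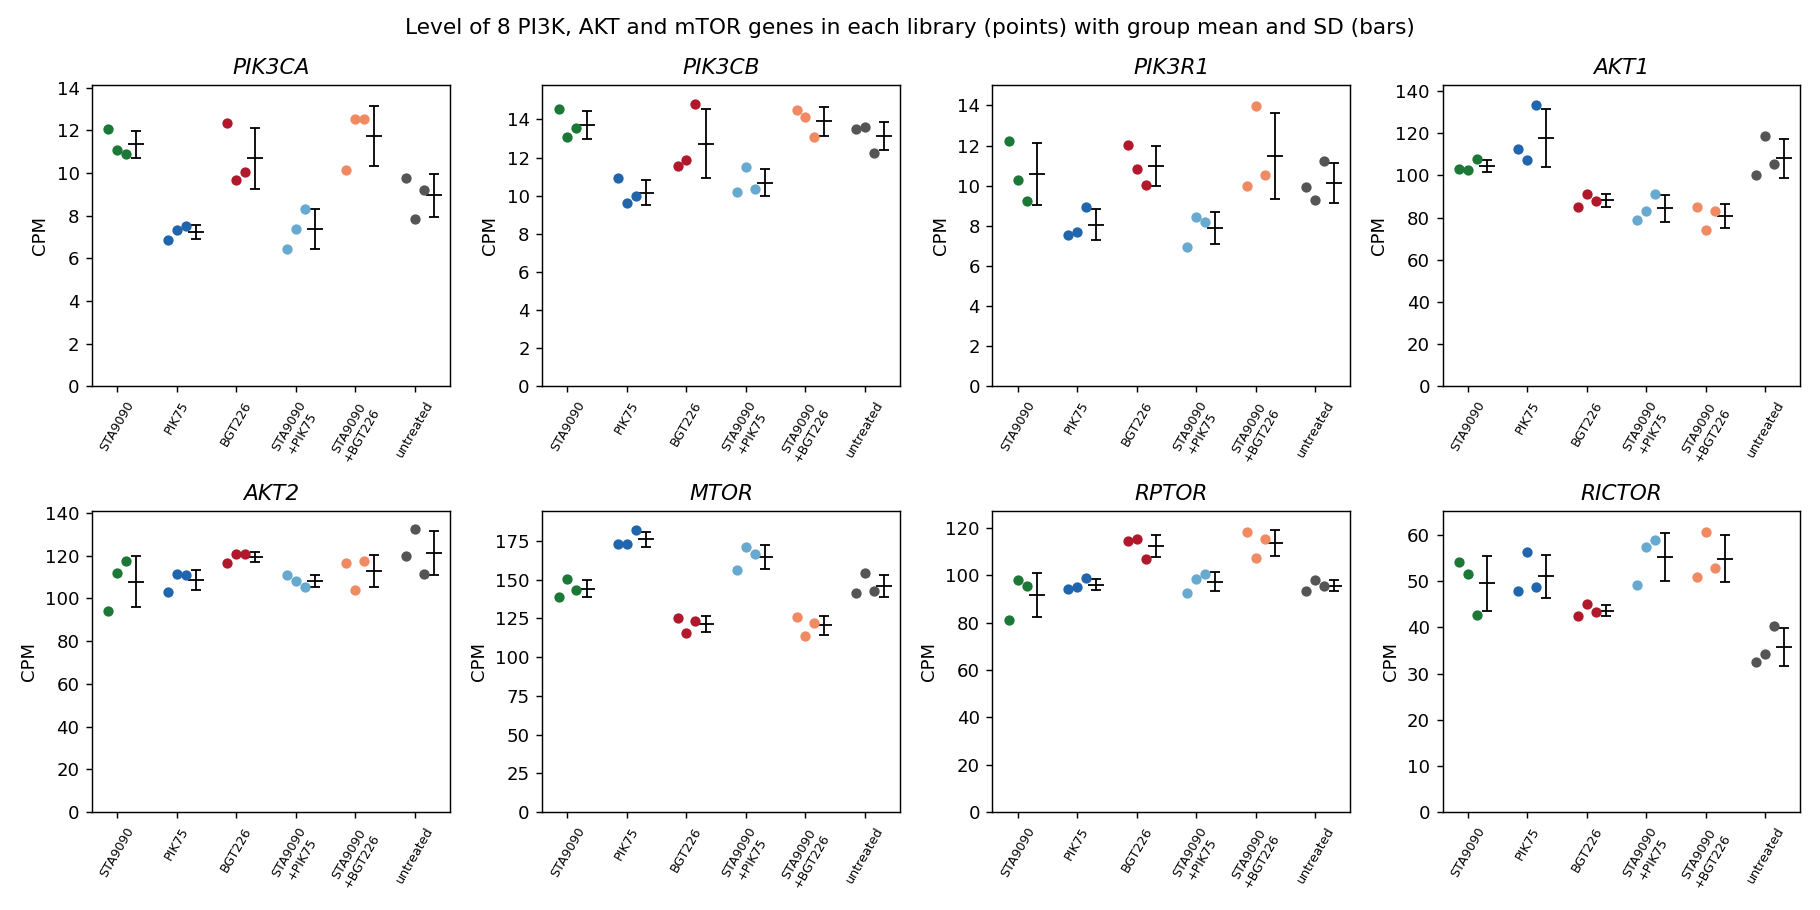
Level of the 8 genes in CPM (y axis from 0) in each library (points) by group (x axis), with the group mean and SD as bars. RICTOR libraries of untreated cells lie below all treated ones, at 32.5 to 40.3 CPM, and MTOR libraries with PIK75 lie above all others, at 173 to 182 CPM.

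**Figure D2:**
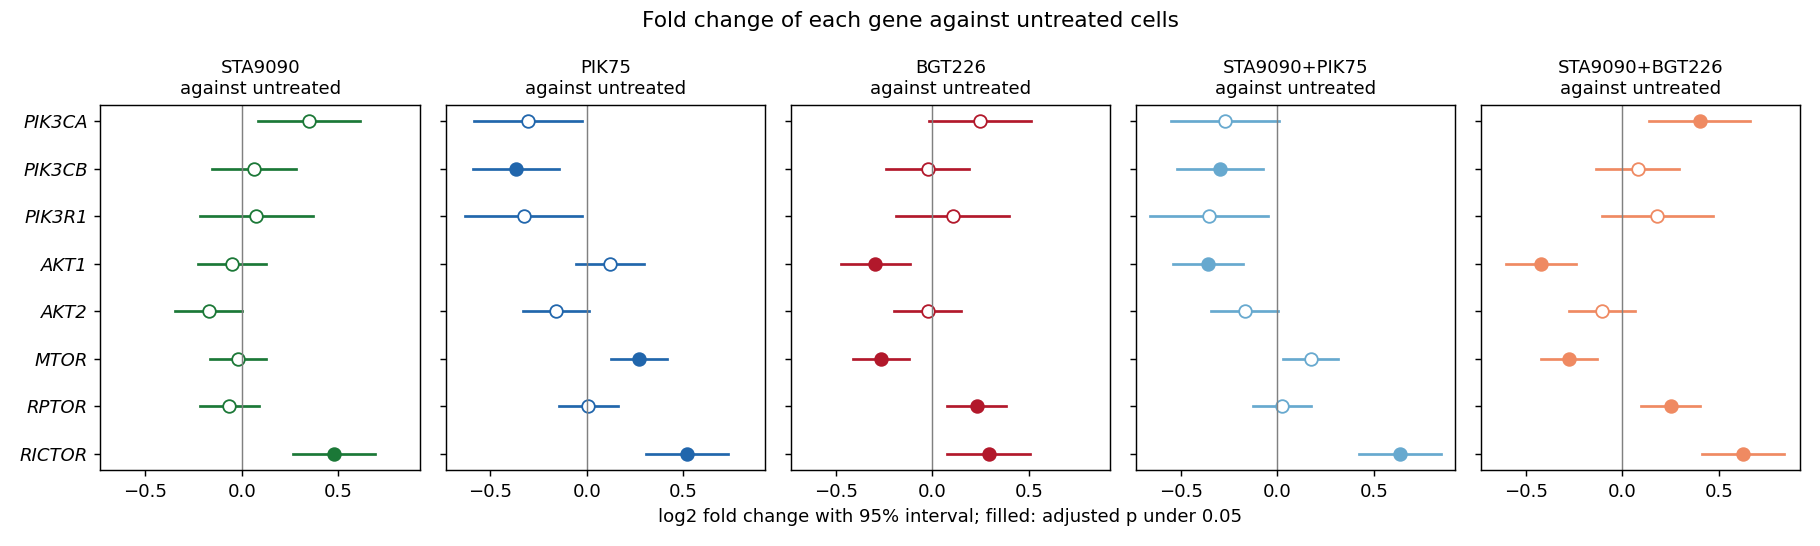
Fitted log2 fold change against untreated cells (x axis) of each gene (y axis) in the 5 treatments (panels), with 95% intervals as lines and filled points where adjusted p is under 0.05. RICTOR is filled in all 5 panels and AKT2 in 0 of them, and MTOR is right of 0 with PIK75 and left of 0 with BGT226.

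The PI3K subunits were the lowest in count of the 8. PIK3CA, the catalytic subunit most often mutated in cancers, stood at 12.1, 11.1 and 10.9 CPM with STA9090, 6.86, 7.32 and 7.52 with PIK75, 12.3, 9.65 and 10.1 with BGT226, 6.43, 7.36 and 8.29 with STA9090+PIK75 and 10.1, 12.5 and 12.5 with STA9090+BGT226, against 9.76, 7.84 and 9.22 CPM in untreated cells. The STA9090 and STA9090+BGT226 libraries lay above every untreated library, those with PIK75 below them, and those with BGT226 and STA9090+PIK75 overlapped them. PIK3CA rose with STA9090+BGT226, at a log2 fold change of 0.40 (SE 0.13, adjusted p = 0.0155). That call was lost without STA9090+BGT226 replicate 2 or 3 or untreated replicate 2 (log2 fold change 0.31 to 0.35, adjusted p 0.0616 to 0.0921). The other treatments did not pass for PIK3CA, with log2 fold changes of 0.35 (SE 0.13, adjusted p = 0.135) for STA9090, -0.30 (SE 0.13, adjusted p = 0.125) for PIK75, 0.25 (SE 0.13, adjusted p = 0.156) for BGT226 and -0.27 (SE 0.13, adjusted p = 0.118) for STA9090+PIK75. KCNMB3, which shares exon sequence with it, was at 0.899 ± 0.289 CPM with STA9090, 0.740 ± 0.449 with PIK75, 1.20 ± 0.358 with BGT226, 1.54 ± 0.0636 with STA9090+PIK75 and 1.49 ± 0.181 with STA9090+BGT226, against 0.810 ± 0.104 CPM in untreated cells (SD, n = 3 each). Its log2 fold changes were 0.93 (adjusted p = 0.0523) with STA9090+PIK75 and 0.87 (adjusted p = 0.0635) with STA9090+BGT226, where PIK3CA was at -0.27 and 0.40, and its part in the PIK3CA counts was not tested.

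PIK3CB, the p110-beta catalytic subunit, stood at 14.5, 13.1 and 13.5 CPM with STA9090, 10.9, 9.60 and 9.98 with PIK75, 11.5, 11.9 and 14.8 with BGT226, 10.2, 11.5 and 10.4 with STA9090+PIK75 and 14.5, 14.1 and 13.1 with STA9090+BGT226, against 13.5, 13.6 and 12.3 CPM in untreated cells. All libraries with PIK75, alone or with STA9090, lay below every untreated library, and the other 3 treatments overlapped untreated cells. PIK3CB fell with PIK75 by a log2 fold change of -0.37 (SE 0.11, adjusted p = 0.0215) and with STA9090+PIK75 by -0.30 (SE 0.11, adjusted p = 0.0341). Neither call held throughout. The PIK75 call ended without PIK75 replicate 2 or 3 or untreated replicate 1 or 2 (log2 fold change -0.36 to -0.33, adjusted p 0.0592 to 0.0771), with DESeq2 (-0.36, adjusted p = 0.0593) and with the compared groups fitted alone (-0.36, adjusted p = 0.0551). The STA9090+PIK75 call ended without STA9090+PIK75 replicate 1 or 3 or untreated replicate 1 or 2 (log2 fold change -0.28 to -0.27, adjusted p 0.0841 to 0.102), with no filter on low counts (-0.32, adjusted p = 0.0745) and with DESeq2 (-0.30, adjusted p = 0.086). Log2 fold changes were 0.065 (SE 0.10, adjusted p = 0.799) with STA9090, -0.023 (SE 0.10, adjusted p = 0.896) with BGT226 and 0.079 (SE 0.10, adjusted p = 0.576) with STA9090+BGT226.

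PIK3R1, the p85-alpha regulatory subunit that holds the catalytic subunits and restrains them until a receptor is active, stood at 12.3, 10.3 and 9.22 CPM with STA9090, 7.52, 7.71 and 8.96 with PIK75, 12.02, 10.8 and 10.1 with BGT226, 6.96, 8.46 and 8.21 with STA9090+PIK75 and 9.97, 13.96 and 10.5 with STA9090+BGT226, against 9.91, 9.26 and 11.3 CPM in untreated cells. Libraries with PIK75 and STA9090+PIK75 lay below every untreated library, and the other 3 treatments overlapped untreated cells. No treatment passed the test against untreated cells. The log2 fold changes were -0.33 (SE 0.15, adjusted p = 0.126) with PIK75 and -0.35 (SE 0.15, adjusted p = 0.0615) with STA9090+PIK75, the intervals being -0.63 to -0.025 and -0.66 to -0.049. With STA9090, BGT226 and STA9090+BGT226 they were 0.076, 0.11 and 0.18, with adjusted p of 0.829, 0.613 and 0.313. Raw counts of the 3 subunits were 72 to 319 per library, and the SEs of their log2 fold changes against untreated cells were 0.10 to 0.15, against 0.069 to 0.10 for the other 5 genes.

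In order of mean CPM, STA9090+BGT226 was highest and the PIK75 groups lowest for all 3 subunits. For PIK3CB the lowest library with BGT226 (11.5 CPM) was next to the highest with STA9090+PIK75 (11.5 CPM), a gap smaller than the spread within those groups, and for PIK3R1 untreated cells (9.26 CPM or more) and PIK75 (8.96 CPM or less) were the neighbours that did not overlap. For PIK3CA all neighbours in that order overlapped.

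AKT1 but not AKT2 was called against untreated cells, and no test set their changes against each other. AKT1, the broadly expressed AKT kinase of growth and survival, stood at 103, 103 and 108 CPM with STA9090, 112, 107 and 133 with PIK75, 85.2, 91.5 and 87.9 with BGT226, 78.7, 83.1 and 91.3 with STA9090+PIK75 and 84.9, 74.3 and 82.9 with STA9090+BGT226, against 100.3, 119 and 106 CPM in untreated cells. All 9 libraries with BGT226 or a combination lay below every untreated library, and those with STA9090 or PIK75 alone overlapped untreated cells. AKT1 fell by a log2 fold change of -0.29 (SE 0.086, adjusted p = 0.014) with BGT226, -0.36 (SE 0.086, adjusted p = 0.00263) with STA9090+PIK75 and -0.42 (SE 0.086, adjusted p = 0.00062) with STA9090+BGT226. The combination calls were kept under every alternative tried. The BGT226 call ended without BGT226 replicate 1 or 3 or untreated replicate 2 (log2 fold change -0.29 to -0.22, adjusted p 0.0506 to 0.0841). With STA9090 alone and PIK75 alone the log2 fold changes were -0.051 (SE 0.086, adjusted p = 0.811) and 0.12 (SE 0.086, adjusted p = 0.369). In order of mean CPM the groups were PIK75, untreated, STA9090, BGT226, STA9090+PIK75 and STA9090+BGT226, and the gap between STA9090 (102.7 CPM or more) and BGT226 (91.5 CPM or less) was the one between neighbours without overlap.

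AKT2, the AKT kinase best known for its role in the insulin response, stood at 94.2, 112 and 117 CPM with STA9090, 103, 112 and 111 with PIK75, 117, 121 and 121 with BGT226, 111, 108 and 105 with STA9090+PIK75 and 117, 104 and 118 with STA9090+BGT226, against 119.7, 132 and 112 CPM in untreated cells. The STA9090+PIK75 libraries lay just below the untreated ones, and the other 4 treatments overlapped them. The log2 fold changes were -0.17 (SE 0.083, adjusted p = 0.273) with STA9090, -0.16 (SE 0.083, adjusted p = 0.191) with PIK75, -0.023 (SE 0.082, adjusted p = 0.867) with BGT226, -0.17 (SE 0.083, adjusted p = 0.115) with STA9090+PIK75 and -0.10 (SE 0.082, adjusted p = 0.329) with STA9090+BGT226. The 95% intervals of these 5 values reached no lower than -0.34 and no higher than 0.15. A fall of AKT2 as large as that fitted for AKT1 with STA9090+BGT226 lies outside them. A fall as large as that fitted for AKT1 with BGT226, -0.29, lies inside those with STA9090, PIK75 and STA9090+PIK75. All neighbours in the order of group means overlapped.

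The levels of AKT2 and AKT1 were set against each other within a library, a ratio that does not depend on library scaling. The ratio of AKT2 to AKT1 counts was 1.37, 1.32 and 1.37 with BGT226, 1.41, 1.3 and 1.15 with STA9090+PIK75, and 1.37, 1.40 and 1.42 with STA9090+BGT226, against 1.19, 1.12 and 1.06 in untreated cells. Its values were 0.916, 1.09 and 1.09 with STA9090 and 0.916, 1.04 and 0.833 with PIK75, against the same untreated values. BGT226 and STA9090+BGT226 lay wholly above untreated cells, PIK75 wholly below, and STA9090 and STA9090+PIK75 overlapped them.

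MTOR, the kinase of both mTOR complexes, had the most counts of the 8 genes. It stood at 173, 173 and 182 CPM with PIK75 and 156, 171 and 167 with STA9090+PIK75, against 141, 154 and 143 CPM in untreated cells. With BGT226 it was at 125, 116 and 123 CPM and with STA9090+BGT226 at 126, 114 and 122, and with STA9090 at 139, 150.3 and 143. Every library with PIK75 or STA9090+PIK75 was above, and every library with BGT226 or STA9090+BGT226 below, all untreated libraries, while STA9090 alone overlapped untreated cells. MTOR rose with PIK75, at a log2 fold change of 0.27 (SE 0.069, adjusted p = 0.00946), and fell with BGT226 by -0.27 (SE 0.069, adjusted p = 0.00663) and with STA9090+BGT226 by -0.28 (SE 0.069, adjusted p = 0.00333). The last 2 calls were kept under every alternative. The PIK75 call ended without untreated replicate 1 (log2 fold change 0.24, adjusted p = 0.0532), with no filter on low counts (0.25, adjusted p = 0.0551) and with the compared groups fitted alone (0.27, adjusted p = 0.055). With STA9090+PIK75 the log2 fold change was 0.17 (SE 0.069, adjusted p = 0.0534) and did not pass, and with STA9090 it was -0.018 (SE 0.069, adjusted p = 0.926). For STA9090+PIK75 against untreated cells DESeq2 called 2 of the 8 members higher, where edgeR called 1, RICTOR.

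In order of mean CPM, MTOR was at 176 ± 5.05 with PIK75, 165 ± 7.64 with STA9090+PIK75, 146 ± 6.998 in untreated cells, 144 ± 5.70 with STA9090, 122 ± 5.16 with BGT226 and 121 ± 6.13 with STA9090+BGT226 (SD, n = 3 each). Untreated cells overlapped STA9090, and BGT226 overlapped STA9090+BGT226. The other neighbours in that order did not overlap.

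RPTOR, the subunit that brings substrates to mTOR complex 1, stood at 115, 116 and 107 CPM with BGT226 and 118, 107 and 115 with STA9090+BGT226, against 93.5, 98.1 and 95.3 CPM in untreated cells. It was at 80.97, 98.2 and 95.4 CPM with STA9090, 94.4, 95.1 and 98.8 with PIK75 and 92.7, 98.6 and 101 with STA9090+PIK75. All 6 libraries that held BGT226 were above every untreated library and the rest overlapped untreated cells. RPTOR rose, with log2 fold changes of 0.23 (SE 0.073, adjusted p = 0.0215) with BGT226 and 0.25 (SE 0.073, adjusted p = 0.00993) with STA9090+BGT226. The BGT226 call was lost without BGT226 replicate 1 or 2 or untreated replicate 1 or 3 (log2 fold change 0.21 to 0.23, adjusted p 0.0594 to 0.0822) and with no filter on low counts (0.21, adjusted p = 0.117). The STA9090+BGT226 call was lost without STA9090+BGT226 replicate 3 or untreated replicate 1 (log2 fold change 0.22, adjusted p 0.0579 to 0.0581) and with no filter on low counts (0.23, adjusted p = 0.0648). The remaining values were -0.065 (SE 0.073, adjusted p = 0.696) with STA9090, 0.0063 (SE 0.073, adjusted p = 0.965) with PIK75 and 0.025 (SE 0.073, adjusted p = 0.815) with STA9090+PIK75. In the order of group means the step from BGT226 (107.0 CPM or more) to STA9090+PIK75 (100.6 CPM or less) was the one without overlap.

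RICTOR, the subunit that defines mTOR complex 2, stood at 54.3, 51.6 and 42.8 CPM with STA9090, 47.9, 56.4 and 48.9 with PIK75, 42.6, 45.1 and 43.3 with BGT226, 49.3, 57.5 and 59.1 with STA9090+PIK75 and 51.04, 60.7 and 52.96 with STA9090+BGT226, against 32.5, 34.2 and 40.3 CPM in untreated cells. Each of the 15 treated libraries was above all 3 untreated ones. The log2 fold changes were 0.48 (SE 0.10, adjusted p = 0.0175) with STA9090, 0.52 (SE 0.10, adjusted p = 0.00124) with PIK75, 0.29 (SE 0.10, adjusted p = 0.0376) with BGT226, 0.64 (SE 0.10, adjusted p = 5.55e-05) with STA9090+PIK75 and 0.62 (SE 0.10, adjusted p = 6.5e-05) with STA9090+BGT226, so RICTOR rose in all 5. The 5 values share the same untreated libraries. Calls with PIK75, STA9090+PIK75 and STA9090+BGT226 were kept under every alternative. The STA9090 call ended without STA9090 replicate 1 or 2 or untreated replicate 1 or 2 (log2 fold change 0.40 to 0.45, adjusted p 0.051 to 0.0831) and with the compared groups fitted alone (0.48, adjusted p = 0.143). The BGT226 call ended without BGT226 replicate 1, 2 or 3 or untreated replicate 1 or 2 (log2 fold change 0.23 to 0.31, adjusted p 0.0659 to 0.151). Between treated groups, all neighbours in the order of means overlapped.

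OSMR, on the strand opposite RICTOR, was at 33.4 ± 2.87 CPM with STA9090, 25.1 ± 1.73 with PIK75, 38.6 ± 2.21 with BGT226, 26.7 ± 1.85 with STA9090+PIK75 and 40.4 ± 1.78 with STA9090+BGT226, against 35.2 ± 3.19 CPM in untreated cells (SD, n = 3 each). OSMR fell with PIK75 by a log2 fold change of -0.49 (SE 0.088, adjusted p = 0.000539) and with STA9090+PIK75 by -0.40 (SE 0.087, adjusted p = 0.00119), where RICTOR rose. With STA9090, BGT226 and STA9090+BGT226 its log2 fold changes were -0.071, 0.14 and 0.20, with adjusted p of 0.716, 0.245 and 0.0636.

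As counts within a library, RICTOR was 0.670, 0.526 and 0.448 times RPTOR with STA9090, 0.508, 0.593 and 0.495 times with PIK75, 0.372, 0.390 and 0.405 times with BGT226, 0.532, 0.583 and 0.587 times with STA9090+PIK75 and 0.432, 0.566 and 0.459 times with STA9090+BGT226, against 0.348, 0.349 and 0.423 times in untreated cells. This ratio did not overlap untreated cells in 4 of the 5 treatments, all but BGT226. PIK3CB was 1.21 ± 0.031 times PIK3CA with STA9090 and 1.48 ± 0.22 times in untreated cells (SD, n = 3 each), without overlap, and the other 4 treatments overlapped untreated cells. The ratio of PIK3R1 to the sum of PIK3CA and PIK3CB averaged 0.422 to 0.471 in the treated groups and 0.461 ± 0.054 in untreated cells (SD, n = 3), and overlapped untreated cells in all 5 treatments. These ratios are described without a test, and as counts they also carry the lengths of the genes.

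**Figure D3:**
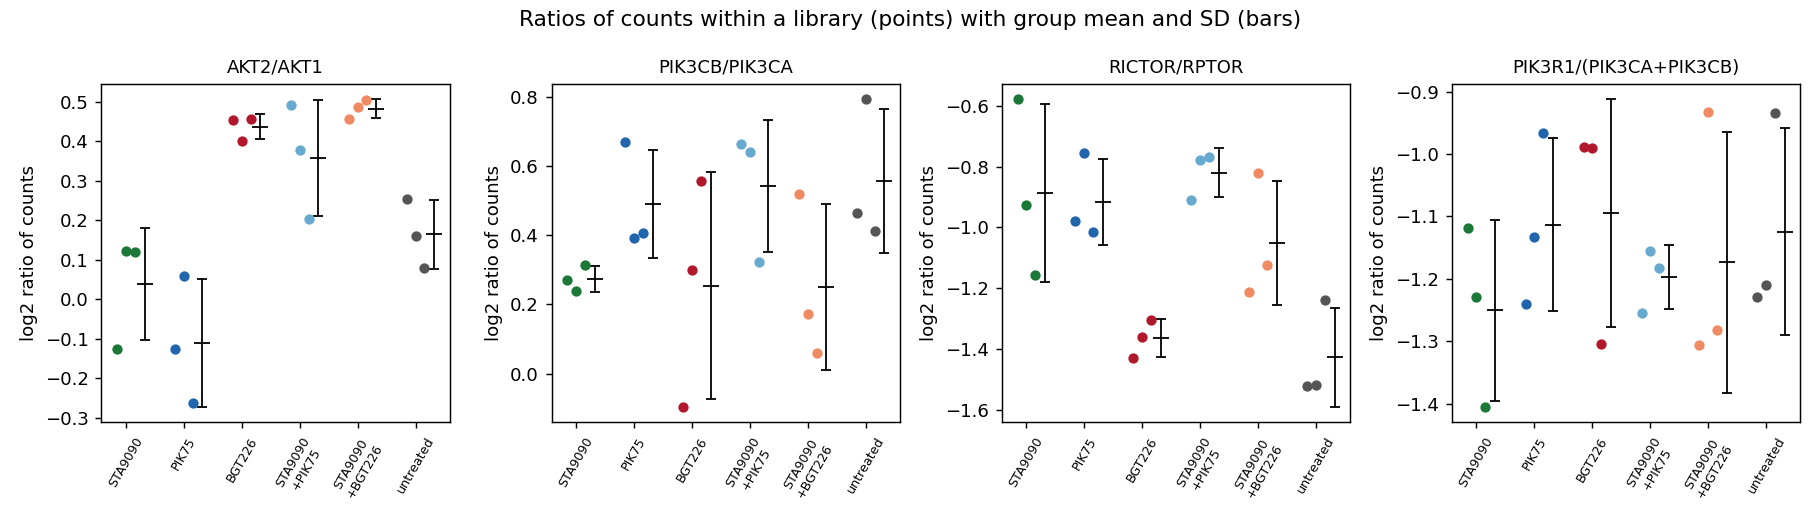
Log2 ratio of counts within a library (y axes, each with its own range) for 4 pairs of genes, by group (x axis), with points for libraries and bars for group mean and SD. AKT2/AKT1 lies at 0.40 to 0.50 with BGT226 and STA9090+BGT226 and at 0.080 to 0.25 in untreated cells, and PIK3R1/(PIK3CA+PIK3CB) overlaps in all groups.

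Per length, the levels of the 8 genes can be set side by side. In untreated cells, per kilobase of all annotated exons, MTOR was at 12.1 ± 0.58 CPM, AKT1 at 9.69, RPTOR at 9.28 and AKT2 at 8.06. RICTOR was at 2.64, PIK3CB at 1.67, and PIK3CA and PIK3R1 at 0.942 CPM per kilobase each. The order among the first 4 depends on the length used: per kilobase of the longest annotated transcript AKT2 was the highest, at 22.9 CPM, ahead of MTOR at 16.8, RPTOR at 14.9 and AKT1 at 12.9. With that length PIK3CA stayed the lowest, at 0.983, and PIK3R1 was at 1.45.

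The combinations were set against their parts to see what each partner added. Adding STA9090 to PIK75 gave 0 members called higher and 1 lower, with 11.3% of all genes tested higher and 14% lower, and 2 members without overlap, with 40% of all genes. The one called was AKT1, at 84.4 ± 6.42 CPM with STA9090+PIK75 and 118 ± 13.7 CPM with PIK75 (SD, n = 3 each), a log2 fold change of -0.48 (SE 0.086, adjusted p = 0.000371) that was kept under every alternative. MTOR with STA9090+PIK75 against PIK75 was -0.096 (SE 0.069, adjusted p = 0.334) and RICTOR 0.12 (SE 0.10, adjusted p = 0.429). Adding STA9090 to BGT226 gave 0 calls of 8, with 0.988% of all genes higher and 1.7% lower, and 2 members, AKT1 and RICTOR, without overlap, with 28% of all genes. There edgeR gave 1 member at an unadjusted p under 0.05 and DESeq2 0 at an adjusted p under 0.05. That member was RICTOR, with a log2 fold change of 0.33 (SE 0.10, adjusted p = 0.0819). MTOR and RPTOR were within -0.16 to 0.13 and -0.13 to 0.17 (95% intervals of the log2 fold change) of their levels with BGT226 alone.

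Adding PIK75 to STA9090 gave 1 member higher and 4 lower, with 17.7% of all genes higher and 19.8% lower. PIK3CA fell by -0.62 (SE 0.13, adjusted p = 0.000881), AKT1 by -0.31 (SE 0.086, adjusted p = 0.00832), PIK3CB by -0.36 (SE 0.11, adjusted p = 0.0114) and PIK3R1 by -0.43 (SE 0.15, adjusted p = 0.0243) on the log2 scale, and MTOR rose by 0.19 (SE 0.069, adjusted p = 0.035). These 5 members were without overlap, with 45.5% of all genes. The PIK3CA and AKT1 calls were kept under every alternative. The PIK3CB call ended without STA9090 replicate 1 (log2 fold change -0.31, adjusted p = 0.0545). The PIK3R1 call ended without STA9090 replicate 1 or STA9090+PIK75 replicate 1 (log2 fold change -0.36 to -0.30, adjusted p 0.0972 to 0.144). For MTOR it ended without STA9090 replicate 1 or 3 or STA9090+PIK75 replicate 2 or 3 (log2 fold change 0.16 to 0.19, adjusted p 0.0731 to 0.128), with no filter on low counts (0.17, adjusted p = 0.207) and with the compared groups fitted alone (0.19, adjusted p = 0.0965). Adding BGT226 to STA9090 gave 1 higher and 2 lower, with 19.5% of all genes higher and 20.9% lower, and 3 members without overlap, with 48% of all genes. RPTOR rose by 0.31 (SE 0.073, adjusted p = 0.00177), and AKT1 and MTOR fell by -0.37 (SE 0.086, adjusted p = 0.00177) and -0.26 (SE 0.069, adjusted p = 0.00526). All 3 calls were kept under every alternative.

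The interaction asks whether a combination differs from the sum of its parts on the log2 scale. For STA9090 with PIK75 it was called in 1 of 8 members, a negative value, with 3.54% of all genes called positive and 5.73% negative. AKT1 lay below the sum of its parts, by a log2 value of -0.43 (SE 0.12, adjusted p = 0.0315): the parts were -0.051 and 0.12 and the combination -0.36. The call did not hold without STA9090 replicate 2 or 3, PIK75 replicate 3, STA9090+PIK75 replicate 1 or 2 or untreated replicate 1 or 3 (log2 fold change -0.44 to -0.33, adjusted p 0.0522 to 0.105) and with the compared groups fitted alone (-0.42, adjusted p = 0.084). For RICTOR the interaction was -0.36 (SE 0.14, adjusted p = 0.122) and did not pass. For STA9090 with BGT226 it was called in 0 of 8 members, with 0.00633% of all genes called positive and 0% negative, and 0 members had an unadjusted p under 0.05 in edgeR or an adjusted p under 0.05 in DESeq2. For RICTOR it was -0.15, with a 95% interval of -0.45 to 0.15.

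PIK75 and BGT226 were tested at matched dose and time, as the labels state them. They are chemically different compounds and BGT226 also inhibits mTOR. With PIK75 against BGT226, 2 members were called higher and 4 lower, with 16.5% of all genes higher and 15.5% lower, and all 8 were without overlap between libraries, with 47.3% of all genes. MTOR was at 176 ± 5.05 CPM with PIK75 and 122 ± 5.16 CPM with BGT226, a log2 fold change of 0.53 (SE 0.069, adjusted p = 6.42e-06). AKT1 was at 118 ± 13.7 CPM with PIK75 and 88.2 ± 3.16 CPM with BGT226, a log2 fold change of 0.41 (SE 0.086, adjusted p = 0.000945). PIK3CA was at 7.23 ± 0.342 CPM with PIK75 and 10.7 ± 1.44 CPM with BGT226, a log2 fold change of -0.55 (SE 0.13, adjusted p = 0.00298). These 3 were kept under every alternative, and MTOR had the smallest adjusted p of any member in any of the 13 comparisons. PIK3CB, PIK3R1 and RPTOR were also lower with PIK75, by -0.34 (SE 0.11, adjusted p = 0.0185), -0.43 (SE 0.14, adjusted p = 0.0258) and -0.23 (SE 0.073, adjusted p = 0.0228). Those calls were less stable. For PIK3CB the call ended without PIK75 replicate 2 or 3 or BGT226 replicate 3 (log2 fold change -0.33 to -0.21, adjusted p 0.0502 to 0.192), with no filter on low counts (-0.34, adjusted p = 0.0599) and with DESeq2 (-0.34, adjusted p = 0.0525). For PIK3R1 it ended without PIK75 replicate 1 or 2 or BGT226 replicate 1 or 2 (log2 fold change -0.44 to -0.37, adjusted p 0.0554 to 0.0917). For RPTOR it ended without PIK75 replicate 1 or 2 or BGT226 replicate 1 or 2 (log2 fold change -0.22 to -0.20, adjusted p 0.0709 to 0.0827) and with no filter on low counts (-0.22, adjusted p = 0.0908). AKT2 was at -0.14 (SE 0.083, adjusted p = 0.218) and RICTOR at 0.23 (SE 0.10, adjusted p = 0.0945) on the log2 scale, with 95% intervals of -0.31 to 0.035 and 0.016 to 0.44.

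The same contrast can be read in other libraries, those with STA9090 added. With STA9090+PIK75 against STA9090+BGT226, 1 member was called higher and 4 lower, with 20.9% of all genes higher and 22.4% lower, and 5 members were without overlap, with 54% of all genes. MTOR was at 165 ± 7.64 CPM with STA9090+PIK75 and 121 ± 6.13 CPM with STA9090+BGT226, a log2 fold change of 0.45 (SE 0.069, adjusted p = 2.48e-05). PIK3CA was at 7.36 ± 0.930 CPM with STA9090+PIK75 and 11.7 ± 1.39 CPM with STA9090+BGT226, a log2 fold change of -0.67 (SE 0.13, adjusted p = 0.000273). PIK3R1 and PIK3CB were lower by -0.53 (SE 0.14, adjusted p = 0.00466) and -0.38 (SE 0.11, adjusted p = 0.00691), and RPTOR by -0.22 (SE 0.073, adjusted p = 0.0169). All but the RPTOR call were kept under every alternative. The RPTOR call ended without STA9090+PIK75 replicate 1 or STA9090+BGT226 replicate 1 or 3 (log2 fold change -0.20 to -0.19, adjusted p 0.0669 to 0.0829) and with no filter on low counts (-0.22, adjusted p = 0.0668). AKT1, called higher with PIK75 than with BGT226, was at 0.064 (SE 0.087, adjusted p = 0.583) here, with a 95% interval of -0.12 to 0.25. RICTOR was at 0.012 (SE 0.099, adjusted p = 0.939), with an interval of -0.20 to 0.22. The libraries of this comparison are separate from those of PIK75 against BGT226, but both comparisons come from the same fitted model. In each, 5 members, PIK3CA, PIK3CB, PIK3R1, MTOR and RPTOR, were called in the same direction. With PIK75 against BGT226, 16.5% of all genes were called higher and 15.5% lower. The share of all genes called in the same direction in each was not counted, so the 5 members cannot be set against it.

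**Figure D4:**
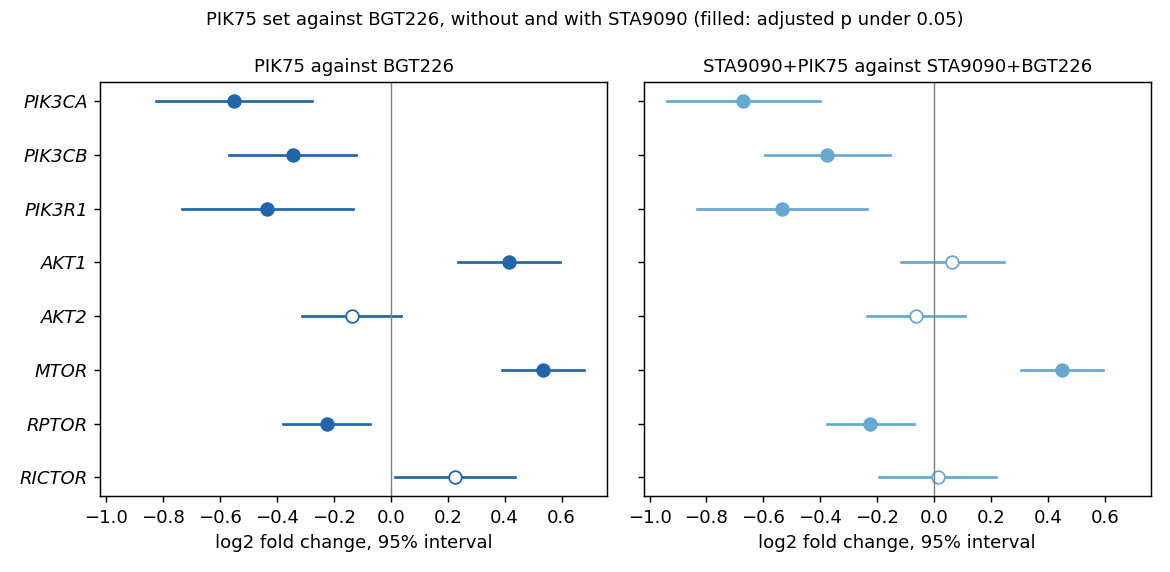
Fitted log2 fold change (x axis) with 95% intervals of the 8 genes (y axis) for PIK75 against BGT226 (left) and STA9090+PIK75 against STA9090+BGT226 (right), filled where adjusted p is under 0.05. The 3 PI3K subunits and RPTOR lie left of 0 and MTOR right of 0 in each panel, and AKT1 lies right of 0 on the left and has an interval across 0 on the right.

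Other genes of the pathway were taken from a list of 35, of which 29 were tested. PIK3CD, PIK3CG, PIK3R5, PIK3R6, INPP5D and PRR5L had too few counts. The list covers further PI3K subunits, PDPK1, lipid and AKT phosphatases, mTOR complex partners, class II and III PI3K, the TSC complex with RHEB, and kinases downstream. With STA9090, 0 of 29 were called higher and 2 lower (1.16% and 1.68% of all genes): PIK3R2, a p85-beta regulatory subunit, at -0.64 (SE 0.15, adjusted p = 0.0307) and the AKT phosphatase PHLPP1 at -0.38 (SE 0.077, adjusted p = 0.0129) on the log2 scale. At an unadjusted p under 0.05 edgeR gave 1 higher, and DESeq2 gave 1 higher at an adjusted p under 0.05. The PIK3R2 call ended without STA9090 replicate 2 or 3 or untreated replicate 1 or 3 (log2 fold change -0.63 to -0.48, adjusted p 0.0794 to 0.102) and with the compared groups fitted alone (-0.63, adjusted p = 0.19), and that of PHLPP1 with the compared groups fitted alone (-0.38, adjusted p = 0.141).

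PHLPP1 was at 26.7 ± 1.23 CPM with STA9090, 62.2 ± 1.43 with PIK75, 45.3 ± 2.75 with BGT226, 48.6 ± 0.386 with STA9090+PIK75 and 37.4 ± 3.94 with STA9090+BGT226, against 34.9 ± 1.44 CPM in untreated cells (SD, n = 3 each). With PIK75 it rose by 0.83 (SE 0.073, adjusted p = 1.02e-07), the smallest adjusted p of the list against untreated cells. PIK75 called 3 of 29 higher and 2 lower, where 8.49% and 10.2% of all genes were called. The others were the S6 kinase RPS6KB2, which rose by 0.39 (SE 0.094, adjusted p = 0.00627), TSC2, the part of the TSC complex that switches RHEB off, at 0.27 (SE 0.093, adjusted p = 0.0455), its partner TBC1D7 at -0.58 (SE 0.16, adjusted p = 0.0124), and the mTOR inhibitor DEPTOR at -0.80 (SE 0.26, adjusted p = 0.038). The PHLPP1 and RPS6KB2 calls were kept under every alternative. For TSC2 the call ended without PIK75 replicate 2 or 3 or untreated replicate 1 or 3 (log2 fold change 0.19 to 0.29, adjusted p 0.0741 to 0.221), with the 50 most counted genes left out (0.26, adjusted p = 0.0502) and with the compared groups fitted alone (0.28, adjusted p = 0.0942). The TBC1D7 call ended without PIK75 replicate 3 or untreated replicate 2 (log2 fold change -0.48 to -0.46, adjusted p 0.0612 to 0.0689) and with the compared groups fitted alone (-0.58, adjusted p = 0.0619), and that of DEPTOR without PIK75 replicate 1, 2 or 3 or untreated replicate 1 or 2 (log2 fold change -0.89 to -0.65, adjusted p 0.0543 to 0.159), with no filter on low counts (-0.81, adjusted p = 0.119), with DESeq2 (-0.80, adjusted p = 0.14) and with the compared groups fitted alone (-0.79, adjusted p = 0.0892).

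BGT226 called 2 of 29 higher and 8 lower, where 12.8% and 15.7% of all genes were called, and 5 of these 10 calls were kept under every alternative. PIK3R3, the p55-gamma regulatory subunit, fell by -0.66 (SE 0.090, adjusted p = 1.91e-05), TBC1D7 by -0.59 (SE 0.15, adjusted p = 0.00634), the lipid phosphatase INPP4B by -0.48 (SE 0.12, adjusted p = 0.0041) and the AKT phosphatase PHLPP2 by -0.40 (SE 0.076, adjusted p = 0.000542), and PHLPP1 rose by 0.38 (SE 0.074, adjusted p = 0.000627). These are the 5 calls that were kept. PIK3C3, the class III PI3K of endosomes and autophagy, was at 0.26 (SE 0.095, adjusted p = 0.0418), a call that ended without BGT226 replicate 2 or 3 or untreated replicate 1, 2 or 3 (log2 fold change 0.16 to 0.27, adjusted p 0.078 to 0.29) and with no filter on low counts (0.24, adjusted p = 0.0816). STA9090+BGT226 also called 2 higher and 8 lower, with 19.4% and 20.4% of all genes. PIK3R3 fell by -0.78 (SE 0.091, adjusted p = 1.36e-06), TBC1D7 by -0.63 (SE 0.15, adjusted p = 0.00276), TELO2, which helps assemble the mTOR complexes, by -0.54 (SE 0.13, adjusted p = 0.00337) and PHLPP2 by -0.39 (SE 0.076, adjusted p = 0.000396), while PIK3C3 rose by 0.62 (SE 0.093, adjusted p = 2.52e-05). All of these were kept under every alternative. RPS6KB1, the other S6 kinase, was at 0.38 (SE 0.13, adjusted p = 0.0239), a call that ended without STA9090+BGT226 replicate 2 or 3 or untreated replicate 2 or 3 (log2 fold change 0.28 to 0.33, adjusted p 0.0959 to 0.153) and with the compared groups fitted alone (0.38, adjusted p = 0.0581).

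STA9090+PIK75 called 7 of 29 higher and 8 lower, where 18.3% and 20.1% of all genes were called. DESeq2 called 5 lower in place of 8, and 6 of the 15 calls were kept under every alternative. PHLPP1 rose by 0.48 (SE 0.074, adjusted p = 3.48e-05), INPP4B by 0.48 (SE 0.11, adjusted p = 0.00191) and MAPKAP1, the SIN1 subunit of mTOR complex 2, by 0.27 (SE 0.062, adjusted p = 0.00199). TBC1D7 fell by -0.59 (SE 0.16, adjusted p = 0.00516) and TSC2 by -0.53 (SE 0.095, adjusted p = 0.000185). These 5 were kept under every alternative, and DEPTOR, at -0.84 (SE 0.26, adjusted p = 0.0161), was not: its call ended without STA9090+PIK75 replicate 2 or 3 or untreated replicate 1 (log2 fold change -0.79 to -0.69, adjusted p 0.0541 to 0.0822), with no filter on low counts (-0.86, adjusted p = 0.0549) and with DESeq2 (-0.84, adjusted p = 0.0703). DEPTOR had few counts, at 1.03 ± 0.193 CPM with STA9090+PIK75, 1.05 ± 0.166 CPM with PIK75 and 1.83 ± 0.318 CPM in untreated cells (SD, n = 3 each). TSC2 was at 58.5 ± 2.47 CPM with STA9090+PIK75, 102 ± 10.3 CPM with PIK75 and 84.4 ± 10.6 CPM in untreated cells (SD, n = 3 each). Against PIK75 alone, 2 of 29 were higher with STA9090+PIK75, INPP4B and TTI1, and 8 were lower (11.3% and 14% of all genes), with TSC2 the lowest at -0.80 (SE 0.095, adjusted p = 3.63e-06). The INPP4B call there ended without PIK75 replicate 2 or 3 or STA9090+PIK75 replicate 2 (log2 fold change 0.22 to 0.32, adjusted p 0.0784 to 0.191) and with DESeq2 (0.33, adjusted p = 0.0541), and that of TTI1 without PIK75 replicate 3 or STA9090+PIK75 replicate 1 (log2 fold change 0.21 to 0.24, adjusted p 0.0621 to 0.0842) and with no filter on low counts (0.25, adjusted p = 0.0588). TSC2 was the 1 of 29 with a called interaction of STA9090 and PIK75, at -0.73 (SE 0.13, adjusted p = 0.00179), kept under every alternative. Of all genes, 3.54% were called positive and 5.73% negative in that interaction.

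**Figure D5:**
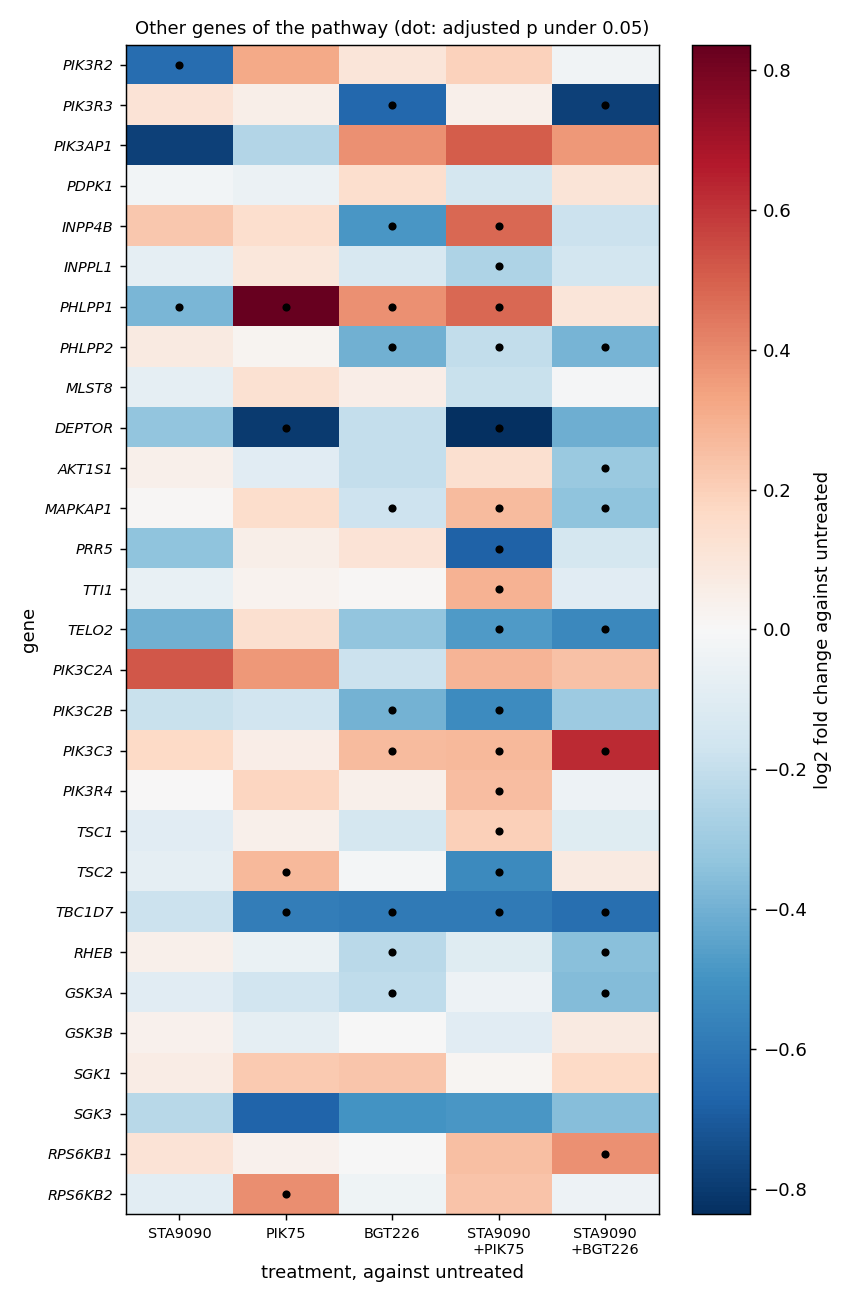
Log2 fold change against untreated cells (colour, scale at the right) of the 29 tested genes of the pathway list (rows) with the 5 treatments (columns), with a dot where adjusted p is under 0.05. PHLPP1 with PIK75 has the largest rise, 0.83, and the lowest called value is DEPTOR with STA9090+PIK75, at -0.84. DEPTOR averaged 1.39 CPM over all libraries, and that call was not kept under every alternative.

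Between the inhibitors, 11 of 29 were higher and 0 lower with PIK75 than with BGT226, where 16.5% and 15.5% of all genes were called. PIK3R3 was higher by 0.70 (SE 0.091, adjusted p = 5.98e-06), INPP4B by 0.62 (SE 0.12, adjusted p = 0.000365), PIK3C2A, a class II PI3K, by 0.55 (SE 0.16, adjusted p = 0.0126) and PHLPP1 by 0.45 (SE 0.072, adjusted p = 6.07e-05), each kept under every alternative. None of the list was called lower there by edgeR or DESeq2 at an adjusted p under 0.05 (0 of 29), and edgeR gave 3 lower at an unadjusted p under 0.05. With STA9090+PIK75 against STA9090+BGT226, 11 were higher and 3 lower, with 20.9% and 22.4% of all genes. PIK3R3 was higher by 0.82 (SE 0.091, adjusted p = 4.01e-07), INPP4B by 0.66 (SE 0.11, adjusted p = 7.49e-05), MAPKAP1 by 0.60 (SE 0.063, adjusted p = 1.76e-07) and AKT1S1, a subunit of mTOR complex 1 that restrains it, by 0.45 (SE 0.098, adjusted p = 0.00083). TSC2, PIK3C3 and PDPK1, the kinase that activates AKT, were lower, by -0.61 (SE 0.095, adjusted p = 3.04e-05), -0.35 (SE 0.092, adjusted p = 0.00402) and -0.25 (SE 0.073, adjusted p = 0.00769). All 7 calls were kept under every alternative.

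Over the 18 libraries, the genes most like each member were ranked by Pearson's r of log2 CPM among 10446 genes with at least 5 CPM on average. These values describe libraries that share groups and depth, and no p is given. MTOR was closest to VARS (r = 0.968), FAH (0.967) and DEF8 (0.963), and AKT1 to GCN1 (0.951), MAZ (0.950) and CKAP4 (0.937). PIK3CA was closest to ADGRV1 (0.939), ENPP4 (0.929) and PLCE1 (0.918), and PIK3R1 to ENPP4 and PHF10 (0.891 each) and PNPLA8 (0.890), so ENPP4 stood near both. RPTOR was closest to KCTD1 (0.938), CTSB (0.936) and FRAT1 (0.930), RICTOR to RAB3GAP2 (0.919), SYTL2 (0.875) and ATR (0.866), and PIK3CB to ABHD18 (0.876), BTG2 (0.870) and TGOLN2 (0.866). AKT2 had the lowest values, with MEPCE (0.871), IER5L (0.821) and KDM5C (0.788). Among the members, r was 0.873 between PIK3CA and PIK3R1, 0.702 between PIK3CA and PIK3CB, and -0.789 between PIK3CA and MTOR.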

How the data were processed

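The authors deposited expected counts per gene, not normalized, in a table of 58870 genes and 18 libraries. Per the labels' protocols, stranded total RNA libraries were made after ribosomal RNA depletion and read as paired ends. RSEM 1.3.1, STAR 2.7.0f, cutadapt 1.18, bcl2fastq 2.20 and the hg38 build are named in the submitters' processing notes. The sources used here give neither the annotation release nor the counting strand, so how reads of overlapping genes were divided is unknown. GENCODE 29 holds 99.54% of the gene IDs without their version numbers and 80.61% with them. Gene positions and lengths come from that release.

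Counts were rounded to whole numbers in R 4.3.3, filtered with filterByExpr of edgeR 4.0.16 (minimum count 10, minimum total 15; 15787 genes kept) and scaled by TMM (factors 0.9034 to 1.132). All 18 libraries entered 1 edgeR quasi-likelihood model with a mean for each group. The common dispersion of 0.01119 corresponds to a coefficient of variation between replicates of 10.58%. In each of 13 comparisons p-values were adjusted by the method of Benjamini and Hochberg over the 15787 genes, and 0.05 was the threshold. Each SE is the absolute log2 fold change over the root of F, and intervals are at 95%. The fit was also run on simulated counts with planted changes. Its outcome there is not given here and is not used to back any call.

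Alternatives tried were scaling by RLE, every gene with at least 1 count kept, and a stricter filter (1 CPM in 3 libraries). Others were a block for the replicate number, libraries without their 50 most counted genes, DESeq2 1.42.0, and the compared groups alone. Single libraries were also dropped in turn, but only those belonging to the groups that a comparison or interaction sets against each other. Libraries of the remaining groups share the model and were not dropped for that call. Counts given without 1 library come from the same fits. A call is said to be kept under every alternative when it passed in all the alternatives tried for it. The members, the pathway list, the comparisons and the alternatives were chosen with earlier results of these data known. From the pathway list, the genes to be named are those with the up to 4 lowest and 4 highest called values of a comparison, and any count of 5 or fewer, and the text names a part of these. MAPKAP1 with STA9090+PIK75 against untreated cells was chosen after its values were seen. Some genes of the pathway and marker lists are not reported here, and counts are over the rest.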

Additional observations from a re-analysis of the deposited data

Results flagged for a closer look

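The interaction of STA9090 and PIK75 differed from 0 for AKT1, at -0.43 on the log2 scale (edgeR, adjusted p = 0.0315): the effect of adding STA9090 was -0.48 in cells with PIK75 and -0.051 in cells without it, and STA9090+PIK75 libraries lay below those with PIK75 in 3 of 3. It was flagged because the effect of an agent depended on the other agent by a direct test, and the call ended without STA9090 replicate 2 or 3, PIK75 replicate 3, STA9090+PIK75 replicate 1 or 2 or untreated replicate 1 or 3 (log2 fold change -0.44 to -0.33, adjusted p 0.0522 to 0.105) and with the compared groups fitted alone (-0.42, adjusted p = 0.084).

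The same test flagged TSC2, at -0.73 (adjusted p = 0.00179, -0.84 to -0.65 over its alternatives, all of which kept the call). Adding STA9090 gave -0.80 (SE 0.095, adjusted p = 3.63e-06) in cells with PIK75 and -0.076 (SE 0.094, adjusted p = 0.725) in cells without it.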

How the results depend on the processing

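Of 37 calls among 104 fitted values of the 8 genes, 20 were kept under every alternative and 17 were not, and these are named beside their results. The number of members called moved by over 1.5 times, or to or from 0, as follows. With no filter on low counts, STA9090+BGT226 against BGT226 gave 1 in place of 0. Smaller moves without the filter were 2 in place of 3 for PIK75, 3 in place of 4 for BGT226, 2 in place of 3 for STA9090+PIK75 and 4 in place of 5 for STA9090+BGT226, each against untreated cells, 4 in place of 5 for STA9090+PIK75 against STA9090, 4 in place of 6 for PIK75 against BGT226 and 4 in place of 5 for STA9090+PIK75 against STA9090+BGT226. DESeq2 gave 2 in place of 3 for PIK75 against untreated cells and 5 in place of 6 for PIK75 against BGT226. With the compared groups fitted alone, STA9090 against untreated cells gave 0 in place of 1, PIK75 against untreated cells 1 in place of 3, STA9090+BGT226 against BGT226 1 in place of 0, and the interaction of STA9090 and PIK75 0 in place of 1. Leaving out 1 library at a time gave 0 to 1 called with STA9090, 1 to 3 with PIK75, 1 to 3 with BGT226, 2 to 3 with STA9090+PIK75 and 3 to 5 with STA9090+BGT226, each against untreated cells. It gave 2 to 5 for STA9090+PIK75 against STA9090, 3 to 5 for PIK75 against BGT226, 4 to 5 for STA9090+PIK75 against STA9090+BGT226 and 0 to 1 for the interaction of STA9090 and PIK75, and it left the other 4 counts as they were. The replicate block changed the call of 0 of the 104 values and ended 4 calls of the pathway genes. The groups share replicate numbers, but of 45 same-numbered pairs of libraries 2 had deviations correlated over 0.1 (r from -0.172 to 0.15), and 3 of 18 libraries were closest to their own number, so the numbers are not read as pairs. RLE size factors changed 0 calls, DESeq2 ended 3 and made 1, and no filter ended 8 and made 1.

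Signs are less certain than calls for small values: 39 of the 104 were within 1 SE of 0, and 27 of these changed sign under some alternative, while 0 of the others did. Values within 1 SE of 0 are printed with their sign, but the sign is not read as a direction. Counts over all genes moved by over 1.5 times in a few comparisons. STA9090 against untreated cells called 183 higher and 265 lower, 369 and 400 with no filter, 0 and 4 fitted alone, and 32 to 211 and 76 to 277 without 1 library. STA9090+BGT226 against BGT226 called 156 higher and 268 lower, 348 and 479 with no filter, 526 and 808 fitted alone, 422 lower with DESeq2, and 35 to 107 and 99 to 157 without 1 library. PIK75 against untreated cells called 1340 higher and 1607 lower, 1066 lower fitted alone, and 853 higher at the fewest without 1 library. The interaction of STA9090 and PIK75 called 559 positive and 904 negative, 294 and 515 fitted alone, and 344 positive at the fewest without 1 library. That of STA9090 and BGT226 called 1 and 0, 82 and 187 with no filter, 13 and 14 with DESeq2, and up to 3 and 3 without 1 library.

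With 3 libraries a group, p-values set a difference against the spread between these cultures of 1 line. That spread was estimated jointly over the 6 groups, whose replicates were not equally alike. Counts of 72 to 319 per library limit what can be said of the PI3K subunits, and the order of levels between genes depends on the exon length used.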
